A study of Mus musculus with 12 samples.

Results

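Non-pathogenic Th17 cells (Th17n) and induced regulatory T cells (iTreg) were compared by ATAC-seq while ornithine decarboxylase was inhibited with DFMO (difluoromethylornithine). The 6 DFMO libraries were chosen by their labels from 12 in all: 3 of Th17n and 3 of iTreg, each from 1 of 3 wild-type C57BL/6 mice. Every culture began with sorted naive CD4+ spleen cells on plate-bound anti-CD3 and anti-CD28 (1 µg/ml each) and was harvested at 68 hours. Th17n cells with DFMO received 25 ng/ml IL-6, 2 ng/ml TGF-beta1 and 100 µM DFMO, and iTreg cells with DFMO received 2 ng/ml TGF-beta1 and 100 µM DFMO. The other 6 libraries are the same lineages from the same 3 animals with vehicle, and show which lineage differences were there without the inhibitor. Both lineages thus share TGF-beta1 and differ by IL-6. They are cells polarised in culture, so they stand for neither lineage as it arises in the animal.

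Ornithine decarboxylase makes putrescine, from which cells build the polyamines spermidine and spermine. Spermidine is also the substrate for the hypusine residue of the translation factor eIF5A. IL-6 with TGF-beta1 induces the IL-17 cytokines through STAT3, whereas TGF-beta1 without IL-6 favours FOXP3, the transcription factor that defines regulatory T cells. ATAC-seq counts cuts by the transposase Tn5, which enters DNA that is not covered by nucleosomes. A peak is a region where such cuts pile up. Accessibility is given as CPM, the count scaled to a common total with TMM factors, and a log2 difference is always Th17n minus iTreg. A peak carries the name of the closest protein-coding gene, at most 100 kb away, which does not show which gene the region controls, and gene names stand for peaks throughout. Cells were measured in bulk, so fewer cells with an open region and less accessibility per cell cannot be told apart.

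The promoters of 6 genes show the regions at stake. Il17a, Il17f and Il21 encode Th17 cytokines and lay under peaks that were higher in Th17n under DFMO. Klf2, which encodes a factor of naive and circulating T cells, and Gata3, which encodes the Th2 factor GATA3, lay under peaks that were higher in iTreg (log2 differences of -1.10 at Klf2 and -1.14 at Gata3). Among all 6 peaks tested at Klf2, 2 were higher in Th17n and 1 in iTreg, and among 8 at Gata3, 0 and 5. Fads2, which encodes a fatty acid desaturase, lay under a peak whose direction under DFMO was the opposite of that in vehicle. Each line gives the 250 bases before the gene's start, 5′ to 3′ on the gene's strand (RefSeq, GRCm38.p6), and capitals mark matches on either strand to the motifs listed after them.
Il17a: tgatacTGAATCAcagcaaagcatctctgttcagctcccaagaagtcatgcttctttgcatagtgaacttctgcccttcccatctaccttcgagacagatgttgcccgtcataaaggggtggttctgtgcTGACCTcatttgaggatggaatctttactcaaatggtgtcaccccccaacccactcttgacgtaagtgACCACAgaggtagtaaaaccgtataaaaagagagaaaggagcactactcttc
Il17f: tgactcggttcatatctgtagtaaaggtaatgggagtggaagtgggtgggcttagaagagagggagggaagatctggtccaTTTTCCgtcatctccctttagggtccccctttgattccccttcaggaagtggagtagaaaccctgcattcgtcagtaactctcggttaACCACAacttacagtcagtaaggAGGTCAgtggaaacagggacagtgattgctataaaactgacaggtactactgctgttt
Il21: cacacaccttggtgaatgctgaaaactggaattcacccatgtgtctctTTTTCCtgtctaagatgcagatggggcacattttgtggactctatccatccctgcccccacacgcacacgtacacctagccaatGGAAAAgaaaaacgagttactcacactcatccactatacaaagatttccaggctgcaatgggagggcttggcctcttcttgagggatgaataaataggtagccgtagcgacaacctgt
Klf2: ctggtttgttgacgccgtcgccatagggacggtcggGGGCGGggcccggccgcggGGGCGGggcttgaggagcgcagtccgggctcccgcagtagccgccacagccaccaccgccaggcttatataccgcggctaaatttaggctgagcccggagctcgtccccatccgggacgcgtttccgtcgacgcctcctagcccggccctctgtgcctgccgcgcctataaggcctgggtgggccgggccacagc
Gata3: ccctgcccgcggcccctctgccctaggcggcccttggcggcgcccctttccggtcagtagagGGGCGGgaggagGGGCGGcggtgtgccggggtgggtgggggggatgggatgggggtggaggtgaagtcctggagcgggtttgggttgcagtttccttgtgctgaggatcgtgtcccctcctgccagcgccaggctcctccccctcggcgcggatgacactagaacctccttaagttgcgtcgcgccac
Fads2: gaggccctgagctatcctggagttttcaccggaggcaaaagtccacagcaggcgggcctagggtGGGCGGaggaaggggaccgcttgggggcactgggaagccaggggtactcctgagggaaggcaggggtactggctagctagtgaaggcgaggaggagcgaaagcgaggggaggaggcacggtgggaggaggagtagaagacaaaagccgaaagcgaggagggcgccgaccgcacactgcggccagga
The motifs searched were AP-1 (TGANTCA), STAT (TTCNNNGAA), ROR (AGGTCA), ETS (CCGGAAGT), SP/KLF (GGGCGG), RUNX (TGTGGT), NFAT (GGAAAA) and CRE (TGACGTCA). In the Il17a promoter (chromosome 1, 20730655 to 20730904, plus strand) the capitals are an AP-1, a ROR and a RUNX match. In the Il17f promoter (chromosome 1, 20784271 to 20784520, minus strand) they are an NFAT, a RUNX and a ROR match. The Il21 promoter (chromosome 3, 37232637 to 37232886, minus strand) held NFAT matches, and those of Klf2 (chromosome 8, 72318812 to 72319061, plus strand), Gata3 (chromosome 2, 9878601 to 9878850, minus strand) and Fads2 (chromosome 19, 10101504 to 10101753, minus strand) held SP/KLF matches. A match describes the letters and does not show that a factor binds there.

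Total counts ran from 1535786 to 3412225 in the 6 DFMO libraries. Log2 CPM correlated at 0.89 to 0.924 within a lineage and at 0.718 to 0.779 between lineages, across peaks. The first principal component of these 6 libraries held 64.4% of the variance and placed Th17n at 108 to 124 and iTreg at -126 to -107. The second (12.9%) parted iTreg libraries 1 (88.1) and 2 (-90.6) from each other. Over the 63 peaks of the Th17 marker genes, summed accessibility was 1123 to 1276 CPM in Th17n and 637.1 to 781.5 CPM in iTreg. Over the 76 peaks of the Treg marker genes it was 1380 to 1495 CPM in Th17n and 1349 to 1557 CPM in iTreg, so these ranges overlapped. Foxp3 had 1 tested peak (chromosome X, 7593219 to 7593658), at 7.16, 6.39 and 2.60 CPM in Th17n and 6.63, 4.45 and 4.93 CPM in iTreg. It did not pass the edgeR quasi-likelihood test under DFMO (0.12 ± 0.46, SE; adjusted p = 0.87; -0.15 without Th17n DFMO replicate 1), and in vehicle it was higher in Th17n (1.65, adjusted p = 0.00049). Accessibility at this Foxp3 peak thus did not separate iTreg from Th17n in the direction of the label.

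Under DFMO the lineages still differed at many regions, in both directions. Of 43726 peaks tested, 16280 passed the threshold of an adjusted p of 0.05 (37.2%, edgeR quasi-likelihood test with Benjamini-Hochberg adjustment). Of these, 9857 were higher in Th17n (22.5%) and 6423 were higher in iTreg (14.7%). The median log2 difference was 1.90 among the peaks higher in Th17n and -0.76 among those higher in iTreg. At least 2-fold differences numbered 8681 peaks higher in Th17n (19.9%) and 2424 higher in iTreg (5.54%), and in vehicle the shares were 22.1% and 7.19%. The 3 libraries of each lineage did not overlap at 25.8% of peaks in favour of Th17n and 19.7% in favour of iTreg. The peaks higher in Th17n were narrow and weak in iTreg, with a median width of 464 bp and median levels of 13.6 CPM in Th17n and 3.29 CPM in iTreg. Those higher in iTreg were wider (773 bp) and open in both lineages, at 24.9 CPM in Th17n and 43.4 CPM in iTreg. The split between directions depends on the scaling: with factors taken from peaks at gene ends, the median of all peaks moved by 0.27 on the log2 scale, and 12425 peaks were higher in Th17n and 2412 in iTreg. With library totals as the scale, 10437 were higher in Th17n and 5063 in iTreg.

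The peaks of the 2 directions were placed as follows relative to genes. Of the calls under TMM scaling, 455 of the peaks higher in Th17n were within 1 kb of an end of a gene model (4.62%), against 2929 of those higher in iTreg (45.6%) and 30.4% of the peaks that were not called. These shares depend on the scaling: with factors from gene ends, 6.71% of the peaks higher in Th17n and 22.3% of those higher in iTreg were at gene ends, and with library totals 4.98% and 41.5% were. Peaks inside gene models made up 56.5% of those higher in Th17n and 30.6% of those higher in iTreg. The share of all counts at gene ends was 48.6%, 47.2% and 48.9% in the Th17n libraries and 57.0%, 55.3% and 57.0% in the iTreg libraries. Every Th17n library was below every iTreg library. The means were 48.2% ± 0.909 in Th17n and 56.4% ± 0.987 in iTreg (SD, n = 3 each; two-sided exact permutation p = 0.1 with libraries not paired by animal, the smallest that 3 against 3 can give). In vehicle they were 46.0% ± 0.495 in Th17n and 55.0% ± 1.19 in iTreg.

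**Figure D1:**
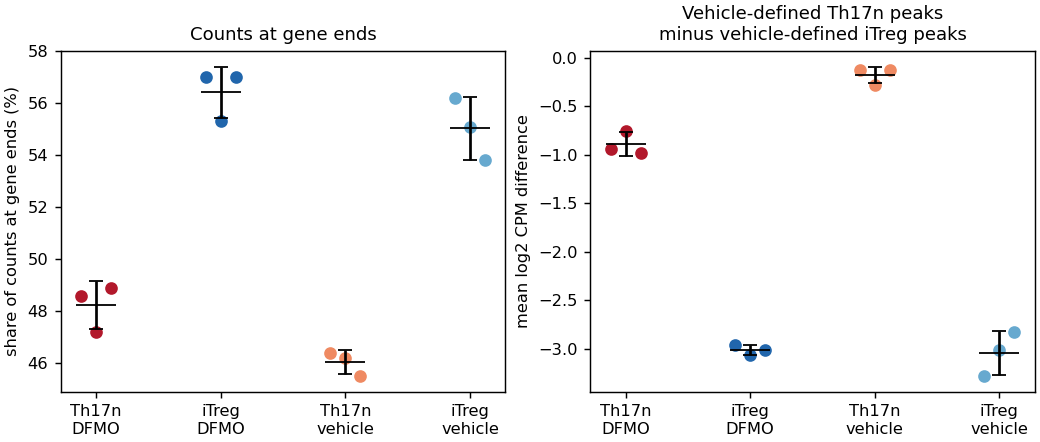
Left, share of counts within 1 kb of a gene end (%) in each library. Right, mean log2 CPM of peaks higher in Th17n in vehicle minus that of peaks higher in iTreg in vehicle. Points are libraries, and lines with bars are the mean ± SD of 3. The right panel's vehicle groups chose its peaks, and the Th17n DFMO libraries lie at -0.979 to -0.753 against -3.06 to -2.96 for iTreg DFMO.

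Promoter letters differed between the directions as well. Of 208 RefSeq promoters (300 bases, 250 before the start and 50 after it) over a peak higher in Th17n, 35.6% held an AP-1 match. The share was 3.55% of 3635 promoters over a peak higher in iTreg, 4.88% of 7690 over a tested peak that was not called and 7.81% of all 32817. A ROR match was in 23.6% of those over peaks higher in Th17n and 9.13% of those over peaks higher in iTreg. It was in 11.1% of those over peaks not called and 16.3% of all. The SP/KLF motif ran the other way, at 38.9% over peaks higher in Th17n and 73.3% over peaks higher in iTreg. Over peaks not called it was 68.5%, close to the iTreg share, and of all promoters 35.6%. The median number of CpG dinucleotides was 6 over peaks higher in Th17n, 24 over peaks higher in iTreg and 23 over peaks not called. Base composition thus moves with these shares. Its part in them was not tested. All these shares use the calls under TMM scaling and were not computed under another. With factors from gene ends, gene-end peaks higher in Th17n went from 455 to 834 and those higher in iTreg from 2929 to 539. Some promoters share a peak: the 208 lay over 180 peaks and the 3635 over 2642.

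With all libraries in the fit, most vehicle differences in favour of Th17n remained under DFMO, and fewer than 1 in 2 of those in favour of iTreg did. In vehicle 44.6% of peaks were called, and 11027 were higher in Th17n (25.2%) and 8456 in iTreg (19.3%). Of the Th17n set 7654 were called in the same direction under DFMO, which is 69.4% of the vehicle list and 77.7% of the DFMO list. Of the iTreg set 3913 were, 46.3% of the vehicle list and 60.9% of the DFMO list. The share rose with the size of the vehicle difference. For Th17n it was 55.3% under 2-fold, 64.1% at 2-fold to 4-fold, 74.8% at 4-fold to 8-fold and 82.9% at 8-fold or more. For iTreg it was 42.8%, 45.6%, 61.2% and 78.2% in the same bins. With all libraries thinned to the lowest total the shares were 71.8% for Th17n and 39.5% for iTreg. Without Th17n vehicle replicate 3 the vehicle list in favour of iTreg had 5306 peaks, of which 51.9% remained. The iTreg share also passed 1 in 2 without Th17n vehicle replicate 1 (51.6%) or iTreg vehicle replicate 3 (51.2%). Leaving out 1 library gave 37.4% to 51.9% for iTreg and 56.3% to 71.6% for Th17n.

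A call lost under DFMO is not by itself a change. Of 3357 peaks called higher in Th17n in vehicle and not called under DFMO, 87.9% kept their sign, and 118 (3.52%) passed the test of the difference between the 2 lineage differences. Of 4491 such iTreg peaks, 83.0% kept their sign and 146 (3.25%) passed. Over all peaks that test called 574 (1.31%): the lineage difference was more in favour of Th17n under DFMO at 365 (0.835%) and less so at 209 (0.478%). This split depends on the settings, with 285 and 251 under RLE factors, 259 and 214 under factors from gene ends, 237 and 226 with DESeq2 and 287 and 235 with no filter. Across peaks the DFMO and vehicle differences correlated at 0.793 (Pearson) and 0.743 (Spearman). The 2 comparisons use different libraries of the same animals. The interaction counts changed when single libraries were left out. The 365 became 120, 196 and 195 without Th17n DFMO replicates 1, 2 and 3, and 156, 947 and 132 without iTreg DFMO replicates 1, 2 and 3. They became 174, 183 and 108 without Th17n vehicle replicates 1, 2 and 3, and 223 and 189 without iTreg vehicle replicates 2 and 3. The 209 became 112 without Th17n DFMO replicate 1, 423 and 128 without iTreg DFMO replicates 2 and 3, 131 and 84 without Th17n vehicle replicates 2 and 3, and 101 without iTreg vehicle replicate 2.

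**Figure D2:**
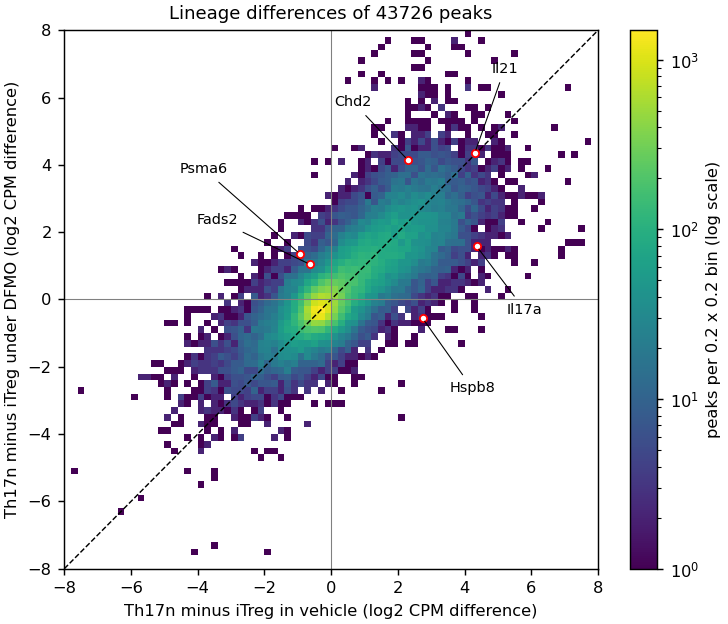
Log2 difference Th17n minus iTreg under DFMO (vertical axis) against that in vehicle (horizontal axis) for 43726 peaks, as peaks per bin on a log colour scale. The dashed line marks equal differences, and 6 named peaks are ringed. Most peaks lie along the line, with Hspb8 and Il17a below it and Chd2, Psma6 and Fads2 above it.

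Among the 12 peaks with the smallest p in favour of Th17n, chosen from those whose libraries do not overlap, the log2 differences ran from 2.71 to 5.54. A peak 65904 bp outside Cdc73, which encodes a subunit of the PAF1 transcription elongation complex (chromosome 1, 143535922 to 143537372), had 75.5, 76.7 and 64.9 CPM in Th17n and 3.01, 3.95 and 5.24 CPM in iTreg. Its log2 difference was 4.07 ± 0.30 (SE; adjusted p = 5.1e-17), and in vehicle it was 3.72. A peak inside Chd2, which encodes a chromatin remodeller (chromosome 7, 73503094 to 73503729), had 94.4, 102 and 84.3 CPM in Th17n and 3.01, 4.94 and 6.77 CPM in iTreg (4.14 ± 0.28, adjusted p = 1.5e-18). In both the Th17n libraries were far above the iTreg ones, a separation by which the peaks were chosen. The peak inside Arid1b, a subunit of the BAF remodelling complex, differed by 3.97 ± 0.33. The peak inside Lyst, a regulator of lysosomal trafficking, differed by 4.23 ± 0.35. Others were at Vstm5 (5.54), Cyria (5.45), Tmtc4 (5.28), Plekhf1 (4.62), Tmem131 (3.98), Tmem116 (3.94) and Lekr1 (2.71). All 12 were called in the same direction in vehicle, and Chd2 alone of them passed the interaction test.

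The 12 in favour of iTreg, chosen in the same way, had log2 differences of -4.10 to -1.46. The peak at a gene end of Selplg, which encodes the selectin ligand PSGL-1 (chromosome 5, 113832411 to 113833024), had 17.9, 15.3 and 20.8 CPM in Th17n and 94.0, 99.3 and 109 CPM in iTreg (-2.51 ± 0.19, adjusted p = 8.5e-15). A peak inside Ikzf4, which encodes the FOXP3 partner Eos (chromosome 10, 128636651 to 128637739), had 21.5, 26.4 and 24.6 CPM in Th17n and 99.4, 77.6 and 104 CPM in iTreg (-1.97 ± 0.18, adjusted p = 1.7e-12). A peak inside Dnmt3a, the de novo DNA methyltransferase (chromosome 12, 3870884 to 3871773), had 27.7, 22.2 and 30.5 CPM in Th17n and 104, 103 and 94.5 CPM in iTreg (-1.91 ± 0.17, adjusted p = 7.2e-13). The gap between the lineages in these 3 follows from choosing peaks whose libraries do not overlap. Ski, a repressor of SMAD proteins (-1.87 ± 0.18), and Icos, a co-stimulatory receptor (-2.02 ± 0.20), had peaks of the same direction, and so did Mxd1, a MYC network repressor (-2.95 ± 0.25). These are single peaks. Icos had 4 of 14 peaks higher in Th17n and 2 in iTreg, and Dnmt3a had 2 of 11 in each direction. Ski had 1 of 11 higher in Th17n and 4 in iTreg, and Ikzf4 had 0 and 3 of 4. The rest were at Fam163b (-4.10), Hbs1l (-3.95), Emsy (-1.80), Smndc1 (-1.71), Abi3 (-1.65) and Irf2bpl (-1.46). All 12 were called in vehicle too, and Irf2bpl passed the interaction test, at -0.76 (adjusted p = 0.018). That Irf2bpl call was lost without iTreg DFMO replicate 3 or Th17n vehicle replicate 2 (adjusted p up to 0.055).

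**Figure D3:**
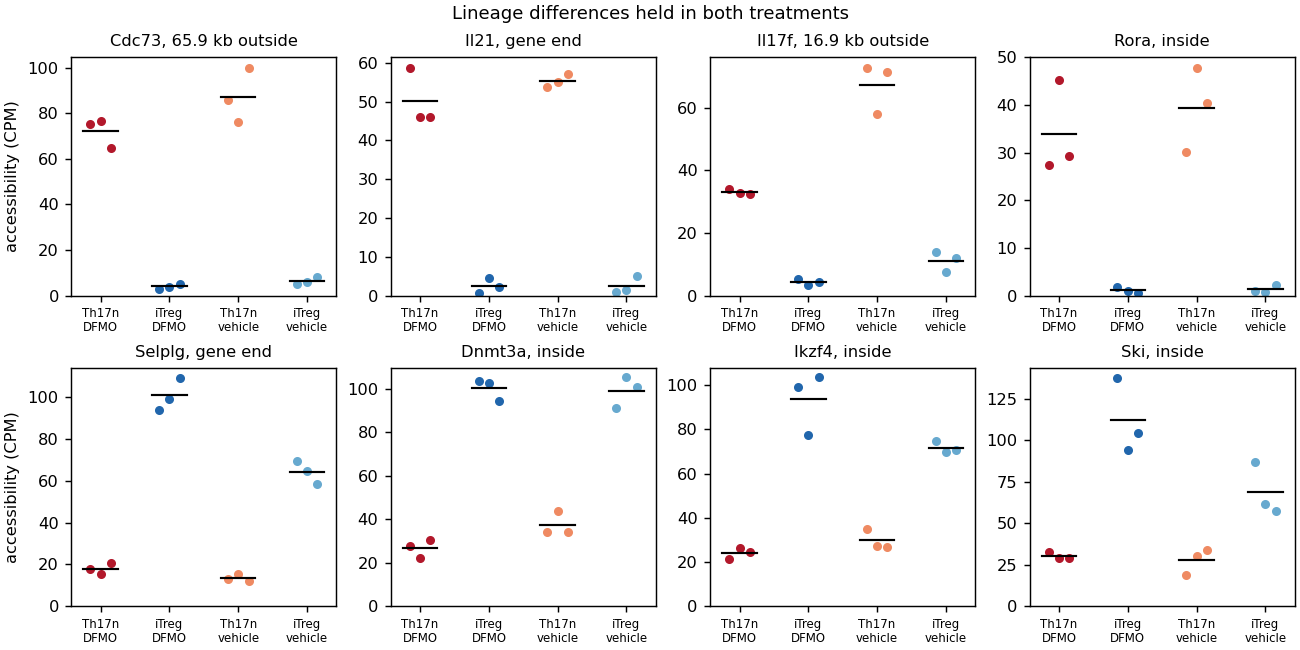
Accessibility (CPM) of 8 peaks called in both treatments, in Th17n DFMO, iTreg DFMO, Th17n vehicle and iTreg vehicle. Points are libraries and lines are means of 3. The top row is higher in Th17n and the bottom row in iTreg, with no overlap between lineages under DFMO. Cdc73 and the bottom row were chosen from peaks without such overlap.

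Th17 cytokine genes stayed more open in Th17n under DFMO. Of 43 peaks tested at 9 genes, 23 were higher in Th17n (53.5%, against 22.5% of all peaks) and 3 were higher in iTreg, with a median log2 difference of 1.11 against -0.0045 for all peaks. The gene-end peak of Il21 (chromosome 3, 37231027 to 37231695) had 58.6, 46.0 and 46.1 CPM in Th17n and 0.602, 4.45 and 2.15 CPM in iTreg (4.34 ± 0.45, adjusted p = 2.5e-13). All 5 peaks of Il17f were higher in Th17n, and the one with the smallest p had 34.2, 32.8 and 32.4 CPM in Th17n and 5.42, 3.46 and 4.31 CPM in iTreg (2.92 ± 0.33, adjusted p = 9.1e-11). Il17a had 4 of 5 peaks called under DFMO and 5 in vehicle. Its gene-end peak, over the promoter printed above, had 11.1, 8.95 and 6.49 CPM in Th17n and 5.42, 2.97 and 1.54 CPM in iTreg with DFMO. In vehicle it had 24.5, 24.4 and 18.0 CPM in Th17n and 0, 0.889 and 1.66 CPM in iTreg. The lineages did not overlap in either treatment, and the difference was 1.58 ± 0.49 under DFMO (adjusted p = 0.0066) and 4.36 ± 0.55 in vehicle, so it was smaller under DFMO (interaction -2.78 ± 0.73, adjusted p = 0.033). The DFMO call was lost without iTreg DFMO replicate 3 (adjusted p = 0.097) and with libraries thinned to the lowest total (adjusted p = 0.078). The interaction call at Il17a was lost without Th17n DFMO replicate 2 or 3, iTreg DFMO replicate 1, any of the Th17n vehicle replicates or iTreg vehicle replicate 2 (adjusted p up to 0.16). A peak 25610 bp outside Il10, which encodes an anti-inflammatory cytokine, differed by 1.94 ± 0.24 under DFMO and 0.79 ± 0.20 in vehicle (interaction adjusted p = 0.049). That interaction call was lost without any single library other than iTreg DFMO replicate 2 (adjusted p up to 0.30), and also with DESeq2, RLE factors, factors from gene ends, no filter or thinning (adjusted p up to 0.28). The 3 peaks higher in iTreg were all at Csf2, the gene of GM-CSF, at log2 differences of -2.35, -1.96 and -1.16.

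Th17 transcription factor genes had 57 of 152 peaks higher in Th17n (37.5%) and 16 higher in iTreg (10.5%). Rora, which encodes RORα, had 14 of 32 peaks higher in Th17n and 2 in iTreg, and its strongest peak had 27.3, 45.2 and 29.2 CPM in Th17n and 1.81, 0.989 and 0.616 CPM in iTreg (5.00 ± 0.62, adjusted p = 1.5e-12). Maf had 5 of 7 and Fosl2, an AP-1 subunit, 6 of 8. Batf had 1 peak called, higher in iTreg (-2.09 ± 0.52). The gene-end peak of Irf4, a factor needed for Th17 differentiation, was at 24.1, 37.5 and 23.4 CPM in Th17n and 21.1, 20.3 and 16.3 CPM in iTreg and did not pass under DFMO (0.59 ± 0.25, adjusted p = 0.056). With the animal as a block this Irf4 peak passed (0.60, adjusted p = 0.049). In vehicle it differed by 1.82 ± 0.22, and the interaction was -1.23 (adjusted p = 0.046). The Irf4 interaction was lost without Th17n DFMO replicate 1 or 3, iTreg DFMO replicate 1 or 3, Th17n vehicle replicate 2 or 3, or iTreg vehicle replicate 1 or 2 (adjusted p up to 0.15). Of 77 peaks at Th17 receptor and surface genes, 19 were higher in Th17n (24.7%, against 22.5% of all peaks) and 17 in iTreg (22.1%, against 14.7%). With factors from gene ends 25 and 11 were, beside 12425 and 2412 of all 43726 peaks. Il23r, the receptor for IL-23, had 3 of 5 higher in Th17n, the strongest at 3.33 ± 0.39 (adjusted p = 1.9e-10), while Il18r1 had 3 of 5 higher in iTreg.

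Regulatory T cell genes had calls in both directions, at shares near those of all peaks (22.5% and 14.7%). Of 182 peaks at Treg transcription factor genes, 50 were higher in Th17n (27.5%) and 32 in iTreg (17.6%), and of 161 at Treg surface and effector genes 44 were higher in Th17n (27.3%) and 28 in iTreg (17.4%). Ikzf2, which encodes Helios, had 4 of 7 peaks higher in iTreg, led by one at 0.976, 5.96 and 1.30 CPM in Th17n and 20.5, 26.2 and 17.6 CPM in iTreg (-2.93 ± 0.47, adjusted p = 4.3e-07). Tnfrsf18, which encodes GITR, had both of its peaks higher in iTreg (-1.01 and -0.82). Ctla4, an inhibitory receptor of regulatory T cells, went the other way, with 9 of 16 peaks higher in Th17n and 1 in iTreg. A peak 14597 bp outside Ctla4 had 22.1, 24.3 and 22.1 CPM in Th17n and 0, 0.989 and 0.308 CPM in iTreg (5.59 ± 0.89, adjusted p = 2.8e-11). Bach2, a repressor that restrains effector genes, had 21 of 50 peaks higher in Th17n and 5 in iTreg, the most calls of any gene. Il2ra, the IL-2 receptor alpha chain, had 3 in each direction, and Nrp1 had 6 higher in Th17n and 5 in iTreg. Inside Nrp1 a peak differed by 1.80 ± 0.28 under DFMO and 0.46 in vehicle (interaction adjusted p = 0.032). The Nrp1 interaction was lost without any single DFMO library other than iTreg replicate 2, and without Th17n vehicle replicate 2 or 3 or iTreg vehicle replicate 2 (adjusted p up to 0.17). It was also lost with DESeq2 and with thinning (adjusted p up to 0.38).

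Signalling genes had calls in both directions, to be read against 22.5% and 14.7% of all peaks. IL-6 and STAT signalling genes had 22 of 110 peaks higher in Th17n (20.0%) and 19 in iTreg (17.3%). TGF-beta signalling genes had 32 (24.8%) and 29 (22.5%) of 129, and IL-2 and STAT5 signalling genes 26 (25.5%) and 10 (9.8%) of 102. With factors from gene ends the counts were 32 and 9, 43 and 15, and 36 and 5 for the same lists. Those factors called 12425 peaks higher in Th17n and 2412 in iTreg among all 43726. The shares of 22.5% and 14.7% hold under TMM scaling and are no measure for these counts. Within the TGF-beta list, Smad3 had 8 peaks higher in Th17n and 3 in iTreg, and Tgfbr2, a receptor subunit, had 5 higher in Th17n and 6 in iTreg. A peak 55111 bp outside Tgfbr2 had 2.60, 5.11 and 4.54 CPM in Th17n and 33.7, 19.3 and 39.1 CPM in iTreg (-2.96 ± 0.43, adjusted p = 8e-08). Polyamine genes had 17 of 72 peaks higher in Th17n (23.6%) and 12 in iTreg (16.7%), near the shares of all peaks. Under factors from gene ends the polyamine counts were 22 and 5, to be read against the counts over all peaks under the same factors. Odc1, the gene of the enzyme that DFMO inhibits, had 3 of 9 peaks higher in Th17n and 1 in iTreg. One inside it had 35.8, 22.2 and 23.3 CPM in Th17n and 3.61, 1.98 and 4.31 CPM in iTreg (2.99 ± 0.39, adjusted p = 3.9e-09). Its gene-end peak was higher in iTreg (-0.47 ± 0.13, adjusted p = 0.0034), a call lost with scaling by gene ends (adjusted p = 0.23). Under TMM scaling the genes of eIF5A (Eif5a, -0.86 and -0.34) and antizyme 1, an inhibitor of ornithine decarboxylase (Oaz1, -0.42), had peaks higher in iTreg only. Factors from gene ends moved the median of all peaks by 0.27 towards Th17n, not far from the values of -0.34 and -0.42. Both the size of these differences and whether they are called can thus depend on the scaling. A peak inside Slc7a5, which encodes a large neutral amino acid transporter subunit, had 123, 106.5 and 102.5 CPM in Th17n and 41.6, 83.5 and 44.3 CPM in iTreg with DFMO (0.98 ± 0.17). In vehicle it differed by 0.01, and the interaction was 0.98 (adjusted p = 0.017). The Slc7a5 interaction was lost without Th17n DFMO replicate 1, iTreg DFMO replicate 1 or 3, Th17n vehicle replicate 1 or 3, or iTreg vehicle replicate 2 or 3 (adjusted p up to 0.15), and with DESeq2 (adjusted p = 0.055).

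The remaining lists, beside shares over all peaks of 22.5% for Th17n and 14.7% for iTreg, held 16 of 72 peaks higher in Th17n and 15 in iTreg for Th1 genes, 16 and 9 of 46 for Th2 genes, 29 and 12 of 103 for Tfh genes, and 69 and 46 of 267 for naive and memory T cell genes. They held 47 and 33 of 194 for activation and AP-1 genes, 27 and 15 of 98 for chromatin modifiers, 23 and 10 of 92 for glycolysis and hypoxia, and 21 and 18 of 100 for CD4 T cell identity. Their shares were 21.0% to 34.8% for Th17n and 10.9% to 20.8% for iTreg. With factors from gene ends the Th1 counts were 21 and 10 and the Th2 counts 20 and 2. Those factors called 12425 and 2412 of all 43726 peaks. Gata3 had 5 of 8 peaks higher in iTreg and 0 in Th17n, and Il4ra had 7 of 11 higher in Th17n and 0 in iTreg. Tet2, a DNA demethylase, had 8 of 12 higher in Th17n and 1 in iTreg. For genes of cytotoxic T and NK cells the counts were 5 and 2 of 15, for B cell genes 10 and 3 of 25, and for myeloid genes 4 and 1 of 23. Of the B cell marker genes, Ebf1 and Pax5 had peaks assigned, and their summed level was 216.7 to 228.4 CPM in Th17n and 108.4 to 129 CPM in iTreg. Ms4a1, Cd79a and Cd79b had none, and 9 of the 16 Ebf1 peaks were higher in Th17n. Whether B cells took part in these values was not tested. The Th2 marker peaks summed to 164.6 to 181.1 CPM in Th17n and 234.6 to 266.4 CPM in iTreg.

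**Figure D4:**
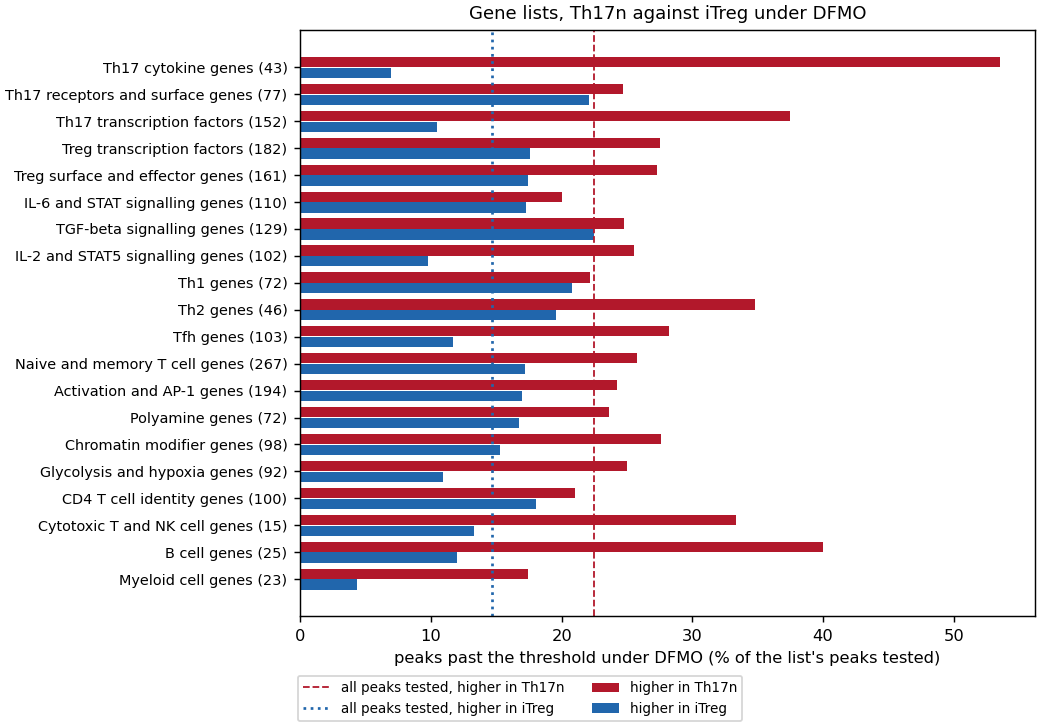
Share of each list's tested peaks that passed the threshold under DFMO, higher in Th17n (red, above) or in iTreg (blue, below), with the number of peaks in brackets. Lines mark the shares over all peaks tested, 22.5% and 14.7%. Th17 cytokine genes lie farthest above the Th17n line.

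Genes with many peaks had the most calls. Counts are to be read against the peaks tested per gene and the shares over all peaks, 22.5% for Th17n and 14.7% for iTreg. After Bach2 came Inpp4b (17 higher in Th17n and 6 in iTreg of 38 tested), Foxp1 (13 and 7 of 45) and Lpp (18 and 1 of 35). Next were Akap13 (11 and 7 of 36), Wwox (15 and 3 of 28) and Nfkb1 (10 and 7 of 25). Hdac4 (13 and 3 of 20), Hivep3 (10 and 6 of 30) and Rora followed. Calls in favour of Th17n without any in favour of iTreg were most numerous at Snd1 (12 of 19), Dip2c (10 of 15) and Ebf1 (9 of 16). Sgip1 (9 of 16), Dgkg (8 of 10) and Dlg2 (8 of 11) came after them. The reverse held at Cwc27 (6 of 11), Rasgrp1 (6 of 20), Gata3 (5 of 8), Hs1bp3 (5 of 8), Mrtfa (5 of 13) and Pip4k2a (5 of 16).

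Some lineage differences of vehicle cells were not called under DFMO and passed the interaction test, 264 peaks in all. A peak outside Hspb8, which encodes a small heat shock protein (chromosome 5, 116380623 to 116381714), had 12.7, 11.5 and 6.49 CPM in Th17n and 16.9, 10.4 and 19.1 CPM in iTreg with DFMO. In vehicle it had 25.5, 27.1 and 33.5 CPM in Th17n and 5.18, 3.56 and 4.57 CPM in iTreg. The lineages overlapped under DFMO and lay far apart in vehicle (interaction -3.30 ± 0.46, adjusted p = 3e-05). Peaks of this class were chosen for a call in vehicle and none under DFMO. At a gene end of Atm, the DNA damage kinase, the values were 13.0, 20.0 and 18.8 CPM in Th17n and 9.03, 15.8 and 8.62 CPM in iTreg with DFMO, and 33.0, 41.6 and 52.6 CPM in Th17n and 3.63, 2.67 and 3.33 CPM in iTreg with vehicle. Inside Ripor2 they were 19.5, 15.3 and 20.8 CPM in Th17n and 18.1, 12.4 and 17.9 CPM in iTreg with DFMO. In vehicle Ripor2 had 58.5, 56.7 and 63.0 CPM in Th17n and 13.5, 12.9 and 10.6 CPM in iTreg. Peaks at Uvrag, Peli2 and Srgap3 had the same pattern. Those inside Shld2 and Aim2, a sensor of cytosolic DNA, were higher in iTreg in vehicle (-3.20 and -2.33) and not called under DFMO. The Aim2 interaction was lost with thinning (adjusted p = 0.085).

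Another 142 peaks differed between the lineages under DFMO, were not called in vehicle and passed the interaction test, 114 of them higher in Th17n. Inside Rab38, a small GTPase (chromosome 7, 88459873 to 88460176), the values were 22.1, 24.7 and 17.5 CPM in Th17n and 1.21, 1.48 and 1.23 CPM in iTreg with DFMO. In vehicle they were 2.83, 5.64 and 3.15 CPM in Th17n and 7.77, 3.78 and 3.95 CPM in iTreg, which overlapped (interaction 4.17 ± 0.72, adjusted p = 0.0003). Outside Spcs2, a signal peptidase subunit, Th17n had 65.4, 50.7 and 59.7 CPM and iTreg had 14.5, 21.8 and 20.6 CPM with DFMO. In vehicle Spcs2 had 37.8, 56.8 and 59.0 CPM in Th17n and 48.7, 63.8 and 84.6 CPM in iTreg, so the iTreg libraries were the ones that stood lower with DFMO. A peak 8321 bp outside Cd5, an inhibitory receptor of T cells, differed by 1.41 ± 0.20 under DFMO and by 0.08 in vehicle (interaction 1.33, adjusted p = 0.0047), a call lost with thinning (adjusted p = 0.097). Ccser1, Frzb, Dgkg, Med15, Pigh and Nmur1 completed the 8 with the smallest interaction p in this class, all higher in Th17n.

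Peaks called in both treatments differed in size at 110 places, smaller under DFMO at 73 and larger at 37. Of the smaller ones, the gene-end peak of Il4ra, the IL-4 receptor alpha chain, had 60.5, 40.9 and 42.2 CPM in Th17n and 28.9, 27.2 and 21.9 CPM in iTreg with DFMO, and 112, 103 and 132 CPM in Th17n and 22.8, 19.8 and 22.9 CPM in iTreg with vehicle (interaction -1.49 ± 0.26, adjusted p = 0.0011). Here the Th17n libraries were lower with DFMO and the iTreg ones were close to those of vehicle. Papss1, Cep70, Mgll and Stard13 also had smaller differences in favour of Th17n, and Ppfibp2 a smaller one in favour of iTreg. Of the larger ones, Chd2 differed by 4.14 under DFMO and 2.30 in vehicle, Smg1, a kinase of nonsense-mediated decay, by 4.25 and 1.79, and Rasgrf2, a Ras exchange factor, by 4.39 and 1.58. The Smg1 interaction was lost with DESeq2 (adjusted p = 0.054).

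Th17n and iTreg differed in opposite directions in the 2 treatments at 68 of 43726 peaks tested. Of these, 52 were higher in iTreg in vehicle and in Th17n under DFMO. The interaction test was passed at 58 of the 68. Choosing peaks by opposite calls largely sets that count, so it is no separate support. The gene-end peak of Fads2, over the promoter printed above, had 57.9, 56.2 and 57.7 CPM in Th17n and 28.9, 39.0 and 18.5 CPM in iTreg with DFMO (1.04 ± 0.19, adjusted p = 2.7e-05). In vehicle it had 72.7, 68.4 and 52.9 CPM in Th17n and 107, 86.2 and 104 CPM in iTreg (-0.63 ± 0.16, adjusted p = 0.0013). Neither pair overlapped. Inside Psma6, a proteasome subunit, the values were 45.2, 59.2 and 43.5 CPM in Th17n and 15.1, 23.2 and 19.4 CPM in iTreg with DFMO, and 17.0, 19.9 and 17.5 CPM in Th17n and 33.1, 30.7 and 41.6 CPM in iTreg with vehicle. Inside Il6ra, the IL-6 receptor alpha chain, the difference was 0.76 ± 0.18 under DFMO and -0.61 ± 0.17 in vehicle (interaction adjusted p = 0.0019). Stim2, Anxa4, Evi5 and Pkd2l1 shared this direction and Bend4 had the reverse. The Pkd2l1 call under DFMO (0.34, adjusted p = 0.034) was lost without Th17n DFMO replicate 1 or 3 and without iTreg DFMO replicate 1 or 3 (adjusted p up to 0.24), and with no filter or with thinning (adjusted p up to 0.14).

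**Figure D5:**
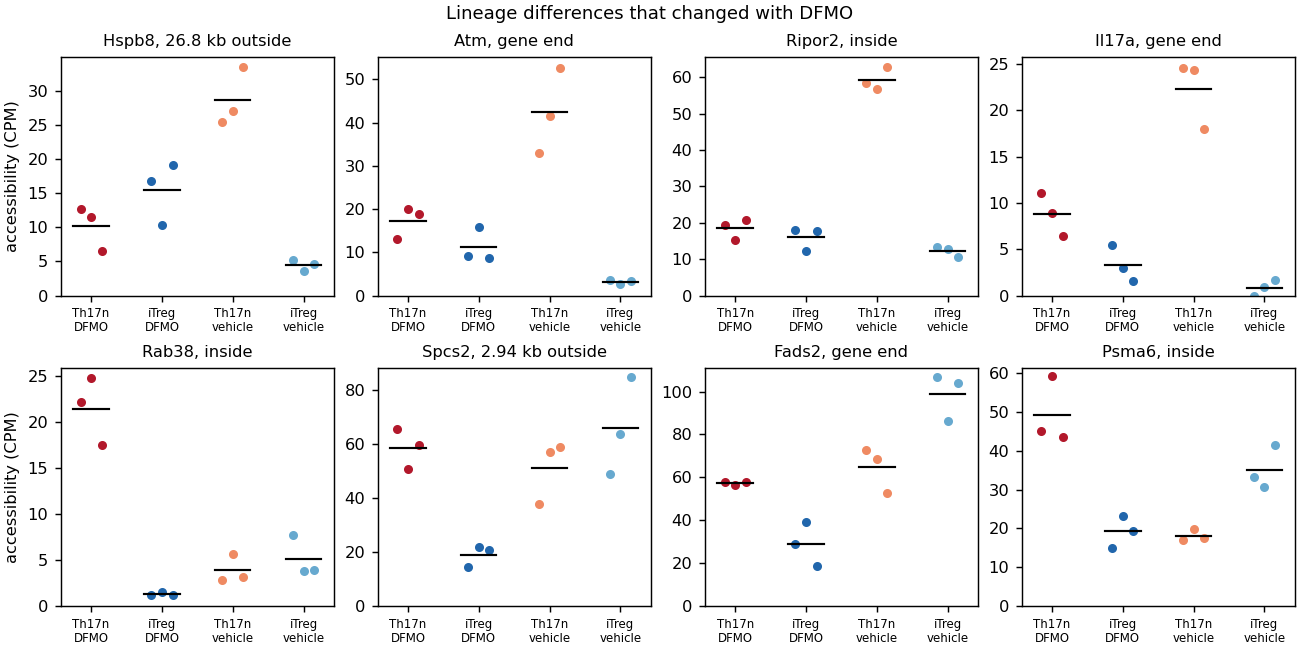
Accessibility (CPM) of 8 peaks whose lineage difference passed the interaction test, in Th17n DFMO, iTreg DFMO, Th17n vehicle and iTreg vehicle. Points are libraries and lines are means of 3. Hspb8, Atm and Ripor2 lose the separation of vehicle under DFMO, Rab38 and Spcs2 gain one, and Fads2 and Psma6 turn round. These peaks were chosen from classes defined by such patterns.

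Most peaks at tRNA and snRNA genes were higher in iTreg in vehicle, and few were called under DFMO. Of 145 peaks at tRNA genes, 17 were higher in iTreg under DFMO (11.7%, against 14.7% of all peaks), and 88 were in vehicle (60.7%, against 19.3%). Of the 88, 13 remained. Summed accessibility was 7455 to 7832 CPM in Th17n and 7969 to 9340 CPM in iTreg with DFMO, and 4468 to 5077 CPM in Th17n and 6835 to 7168 CPM in iTreg with vehicle. The lineages did not overlap in either treatment, and both stood higher with DFMO. The interaction passed at 6 tRNA peaks, all positive. The DFMO count was 9 without Th17n DFMO replicate 2 and 10 without iTreg DFMO replicate 2, and with scaling by gene ends the counts were 2 under DFMO and 32 in vehicle. At 35 snRNA peaks the counts higher in iTreg were 3 under DFMO and 28 in vehicle. Many of these genes exist in near-identical copies, so reads may have been split between them.

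Of 94 peaks at miRNA genes, 2 were higher in Th17n and 21 in iTreg under DFMO (22.3%, against 14.7% of all peaks), and in vehicle 5 were higher in Th17n and 28 in iTreg (29.8%). The mature sequences of 4 miRNA genes under peaks with a lineage difference are printed with the seed (bases 2 to 8) in capitals (RefSeq, GRCm38.p6), since miR-132 and miR-212 share 1 peak and a seed.
mmu-miR-361-3p: uCCCCCAGgugugauucugauuugu
mmu-miR-361-5p: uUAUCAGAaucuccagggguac
mmu-miR-132-5p: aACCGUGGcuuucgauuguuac
mmu-miR-132-3p: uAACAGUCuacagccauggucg
mmu-miR-212-5p: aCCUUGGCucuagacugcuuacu
mmu-miR-212-3p: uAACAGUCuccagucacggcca
mmu-miR-6998-5p: cUGGGCAGagggcaaagugacu
mmu-miR-6998-3p: aGAGCUGCucugugcccacaca
The peak over Mir361 (chromosome X, 113074730 to 113075648) had 27.0, 35.4 and 24.6 CPM in Th17n and 4.82, 1.98 and 1.85 CPM in iTreg with DFMO (3.44 ± 0.41, adjusted p = 1.8e-10), and the interaction was 1.84 (adjusted p = 0.032). The peak over Mir132 and Mir212 (chromosome 11, 75172573 to 75173812) had 55.6, 59.2 and 46.1 CPM in Th17n and 33.1, 43.0 and 37.3 CPM in iTreg with DFMO (0.51 ± 0.17, adjusted p = 0.015). In vehicle its direction was the opposite (-0.38, adjusted p = 0.046; interaction 0.89, adjusted p = 0.037). The 3p arms of miR-132 and miR-212 share the seed AACAGUC. The peak over Mir6998 (chromosome 2, 31612422 to 31613440) had 2.93, 7.67 and 10.4 CPM in Th17n and 41.0, 64.8 and 33.0 CPM in iTreg (-2.83 ± 0.34, adjusted p = 8.4e-10). Accessibility over a miRNA gene is not a measure of the miRNA itself.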

How the data were processed

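ATAC-seq peak counts were analysed for 12 libraries. The authors deposited raw counts of reads per peak on 48443 peaks (mm10). Trimmomatic, FastQC, Bowtie2 and MACS2 were used per the submitters' processing notes, with versions not given in the sources used here. Per the labels' protocols, live cells were sorted and frozen, then thawed and cut with Tn5. Whether peak starts count from 0 or 1 is not given, so they are printed as deposited.

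edgeR 4.0.16 (R 4.3.3) fitted the 4 group means to all 12 libraries with TMM factors. Peaks with too few counts were left out (filterByExpr, minimum count 10), which left 43726 tested and 4717 not. The quasi-likelihood test was used with Benjamini-Hochberg adjustment over all peaks tested, at 0.05. The interaction is the lineage difference under DFMO minus that in vehicle. These comparisons share animals but no library. Peaks were assigned to RefSeq genes (GRCm38.p6) within 100 kb, and a gene end lies within 1 kb of either end of a gene model. Of the 48443 peaks, 46093 were assigned. The procedure was run on simulated data in which few peaks changed, equally in both directions. Such data cannot test the scaling. Total counts limit precision, and the lowest was 1020937.

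Members and gene lists were chosen with earlier results of these data known. Named peaks are the 12 with the smallest p in each direction whose libraries do not overlap, up to 4 genes per list, fixed genes by their peak of smallest p and the one nearest a gene end, up to 8 peaks per interaction class, and the genes with the most calls. Some named items are not reported here. The miRNA genes shown were chosen after their values were seen. The replicate numbers mark the same animal in each group, so they pair the samples. Deviations of same-animal libraries from their group means correlated at -0.011 to 0.0128 across peaks. Alternatives were DESeq2 1.42.0, RLE factors, library totals, TMM from gene ends, no filter, thinning to the lowest total, a fit to 6 libraries, a replicate block, a 2-fold minimum, other distances to genes and leaving out each library.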

Additional observations from a re-analysis of the deposited data

Results flagged for a closer look

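The lineage difference under DFMO differed from that in vehicle, by the interaction test, at these named peaks. The values are log2 differences, Th17n minus iTreg under DFMO, minus the same in vehicle. The most positive values were at Rab38 (4.17), Shld2 (4.06), Stim2 (3.29), Rasgrf2 (2.81), Ccser1 (2.75), Frzb (2.66), Smg1 (2.45), Ppfibp2 (2.41), Anxa4 (2.41), Evi5 (2.39) and Psma6 (2.28). More moderate positive values were at Nmur1 (2.20), Med15 (2.19), Pigh (2.06), Aim2 (1.97), Spcs2 (1.93), Mark3 (1.89), Chd2 (1.84), Ets1 (1.74), Gm8369 (1.73), Babam2 (1.71) and Dgkg (1.67). The lowest positive values were at Ubap2 (1.67), Fads2 (1.67), Il6ra (1.37), Nrp1 (1.34), Cd5 (1.33), Gm52008 (1.22), Il10 (1.15), Pkd2l1 (1.02) and Slc7a5 (0.98). The most negative values were at Papss1 (-4.28), Hspb8 (-3.30), Atm (-3.15), Cep70 (-2.93), 2610301B20Rik (-2.79), Il17a (-2.78), Srgap3 (-2.36), Plekhg3 (-2.34) and Bend4 (-2.19). The other negative values were at Ripor2 (-2.10), Mgll (-2.10), Uvrag (-2.03), Stard13 (-1.98), Peli2 (-1.76), Il4ra (-1.49), Irf4 (-1.23) and Irf2bpl (-0.76). With thinning the interaction was lost at Ets1 (adjusted p = 0.37), 2610301B20Rik (0.11), Plekhg3 (0.054) and Gm52008 (0.053). Without iTreg vehicle replicate 2 it was lost at Plekhg3 (adjusted p = 0.056) and Ets1. Ets1 also lost it without most other single libraries (adjusted p up to 0.13). Losses at other peaks of this list are given above.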

How the results depend on the processing

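Of the 160 named peaks called under DFMO, 143 were called in every alternative run and 17 lost the call in at least 1. Of 48 interaction calls, 13 were lost in at least 1. Under DFMO, scaling by gene ends gave 2412 peaks higher in iTreg (3211 in vehicle, 1253 remaining) and 2 at tRNA genes (32 in vehicle), and library totals gave 8 at tRNA genes. Thinning to the lowest total gave 6168 peaks higher in Th17n and 3150 in iTreg (vehicle 6420 and 3398, remaining 4612 and 1341), 7 at tRNA genes (50 in vehicle), and 150 positive and 88 negative interactions. Fewer counts are part of thinning, and the other causes were not tested. DESeq2 called 237 positive and 226 negative interactions. A 2-fold minimum left 2424 peaks higher in iTreg under DFMO, 3142 in vehicle and 1424 remaining. Within 10 kb of genes, list medians minus that of all peaks were 1.54 for Th17 cytokine, 0.0323 for Treg surface, 0.36 for TGF-beta, -0.10 for polyamine, 0.17 for glycolysis and 0.98 for B cell genes. With the replicate block 9876 peaks were higher in Th17n and 6390 in iTreg under DFMO (10916 and 8375 in vehicle), 448 interactions were positive and 238 negative, 7579 and 3832 remained, and 17 tRNA peaks were called (92 in vehicle). Among the named peaks the block lost no call and added 1, at Irf4 (0.605, adjusted p = 0.049), and it changed no other call.

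Leaving out 1 library gave 7739 to 10320 peaks higher in Th17n and 4872 to 6784 in iTreg under DFMO, and 9688 to 11752 and 5306 to 9243 in vehicle. It gave 9 to 21 tRNA peaks under DFMO and 66 to 93 in vehicle, 108 to 947 positive and 84 to 423 negative interactions, and 6333 to 7684 peaks remaining for Th17n (56.3% to 71.6%) and 2752 to 4065 for iTreg (37.4% to 51.9%). The gene-end share differed by -8.77 to -7.68 percentage points. Peaks that did not pass the test changed sign as follows. Scaling by gene ends gave 0.14 at Ahr, 0.0412 at Batf, 0.20 at Tbx21, 0.0847 at Lef1 and 0.25 at Socs3. Library totals gave 0.00054 at Tbx21 and 0.0531 at Socs3. Thinning gave 0.0015 at Tbx21, 0.0016 at Lef1 and 0.11 at Socs3. Socs3 was at 0.0168 in the fit to 6 libraries and 0.0037 with the block. Leaving out 1 library gave -0.326 to 0.141 at Tbx21, -0.162 to 0.173 at Socs3, -0.00545 to 0.887 at Rora and -0.150 to 0.335 at Foxp3.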
